A study of Mus musculus with 3 samples.

Results

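The genes described here encode the non-collagen proteins of the extracellular matrix and the enzymes that modify and crosslink collagen. They form a list of 50 genes, and the members were taken as the probe sets whose single platform gene symbol is on that list. This gave 96 probe sets of 47 genes, out of 18193 genes with a symbol of their own. Fbn1, Efemp2 and Loxl2 were not analysed here. Of the 47, 44 genes passed the filter on low values, and the other 3, Thbs4, Fbn2 and P4ha3, are given separately.

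The matrix between kidney cells is built by fibroblasts and related stromal cells, and the basement membranes under tubules and in glomeruli are laid down by the epithelial and endothelial cells beside them. Adhesive glycoproteins such as fibronectin connect cells to collagen, small proteoglycans coat and space the collagen fibrils, and elastin is deposited on microfibrils. Lysyl oxidases crosslink collagen and elastin outside the cell, after hydroxylases and chaperones have processed the collagen chains inside it. Matricellular proteins such as tenascin-C and periostin are low in most healthy adult tissues and are known as markers of tissue repair and fibrosis.

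Kidney RNA from 3 C57BL/6 mice was hybridised to single-colour Affymetrix arrays, with 1 array for each mouse. The control group is 1 mouse, whose agent is labelled only as control. The acetate group is 2 mice given 200 mM acetate, a short-chain fatty acid abbreviated C2 in the labels, in drinking water for 6 weeks, starting when they were 3 weeks old. The same 6 weeks and the same starting age of 3 weeks are given for the control mouse. The sources used here do not give the sex of the mice, the salt of acetate or what the control drank. The question is how acetate feeding bears on kidney gene expression.

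All levels are deposited log2 values, so a difference of 1 is a 2-fold change. The single control array carries no error estimate, and an exact permutation test over 3 arrays cannot give a p below 1 in 3. Over all 13473 genes tested the median difference was 0.00 in either mouse. The kidney tubule markers checked, among them Lrp2, Umod and Aqp2, lay between 11.43 and 13.53 on the control array. Adipose tissue markers stood apart on the control array: Adipoq, the fat hormone adiponectin, was 9.98 there, against 4.38 for acetate-fed mouse 1 and 3.87 for mouse 2. Of 4 such markers tested, 4 were at least 2-fold lower in both acetate-fed mice, and their summed back-transformed level was 1839 (control), 120 (mouse 1) and 99 (mouse 2). The effect of exactly tied values on the test is given after the member values.

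Most matrix genes were higher in the acetate-fed kidneys. Of the 44 tested members, 35 were higher than the control in both mice (26.0% of all genes tested were). A further 5 members were lower in both (30.9% of all genes) and 4 were neither (5811 of all 13473 genes). The median of the 44 members stood 0.76 above the control for acetate-fed mouse 1 and 0.25 above it for mouse 2. Both differences share the control array, so they do not count as 2 independent observations of it. Members at least 2-fold higher in both mice numbered 4, against 0.408% of all genes, and 0 were at least 2-fold lower, against 0.460%. The 4 were Tnc, Tgfbi, Mfap4 and Mgp. In mouse 1 alone 16 members were at least 2-fold higher (1.77% of all genes), and in mouse 2 the number was 4 (0.601%).

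**Figure D1:**
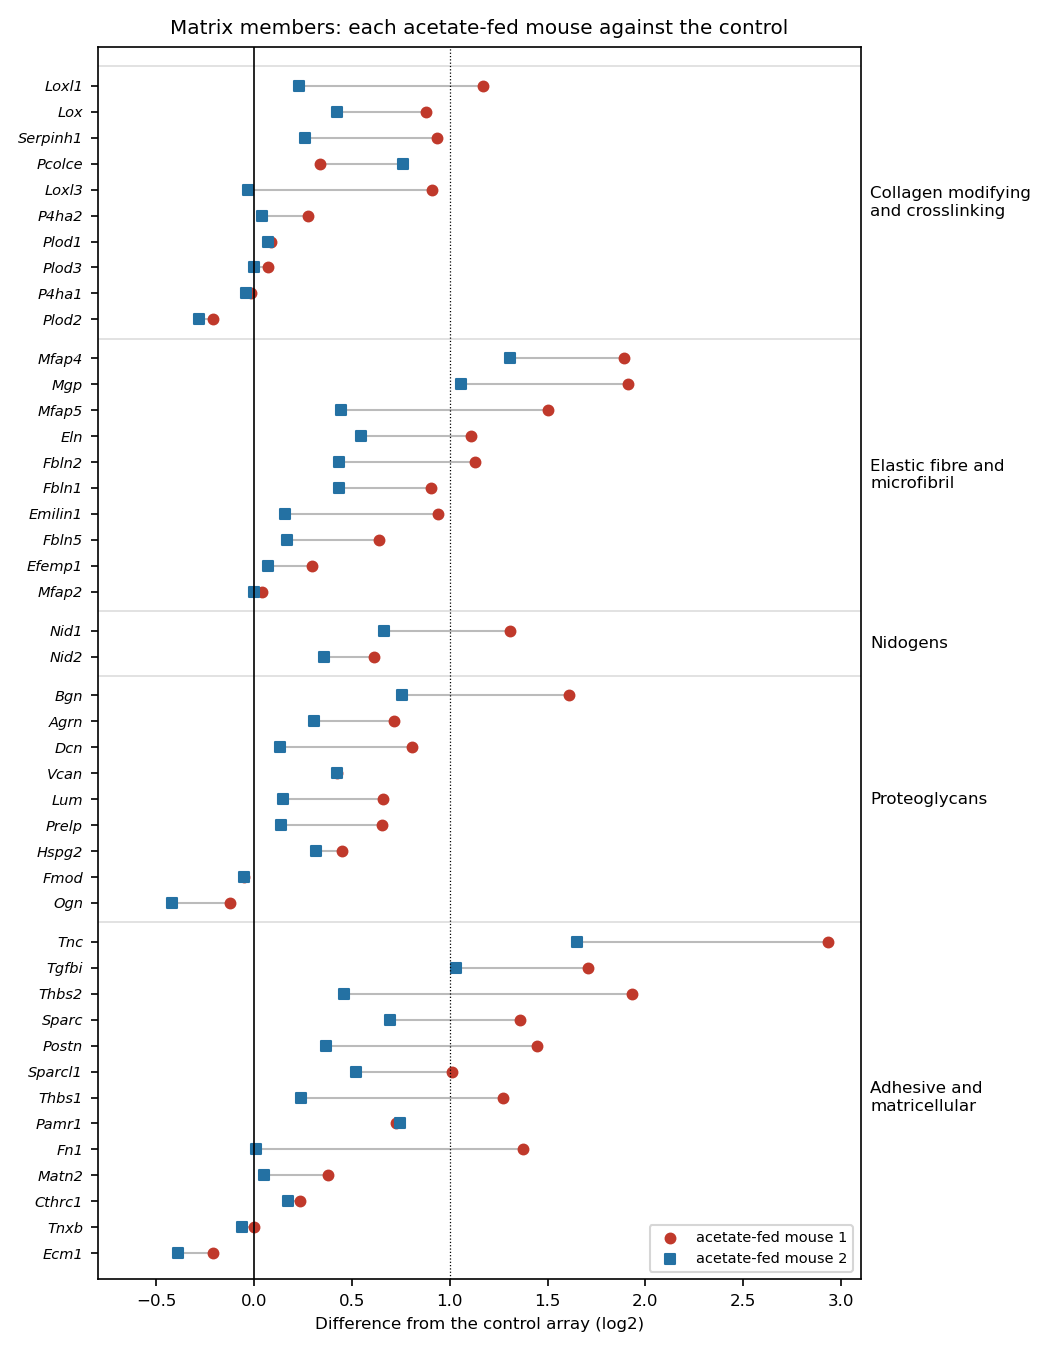
Difference from the control array on the log2 scale for the 44 tested members, by role, in acetate-fed mouse 1 (red circles) and mouse 2 (blue squares); the dotted line marks a 2-fold increase. Tnc, Tgfbi, Mfap4 and Mgp lie past that line in both mice, and 40 of the 44 members are higher in mouse 1 than in mouse 2.

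Tnc, which encodes the matricellular glycoprotein tenascin-C, had the largest difference of the members. Its level was 4.99 (control), 7.92 (mouse 1) and 6.64 (mouse 2), a mean of 7.28 ± 0.91 (SD, n = 2) in the acetate-fed mice. The control lay below both, by 7.63-fold and 3.14-fold. Its Tnc level was near the median of the control array, 4.91. A second Tnc probe set, below the filter on low values, was flat at 2.49 (control), 2.51 (mouse 1) and 2.45 (mouse 2). Tgfbi, a secreted integrin- and collagen-binding protein named for its induction by TGF-beta, was 6.78 (control), 8.49 (mouse 1) and 7.81 (mouse 2), which is 3.27-fold and 2.04-fold higher. All 4 tested Tgfbi probe sets were higher in both mice, but 2 of them lay 0.64 and 0.65 above the control in mouse 2, below 2-fold, and with the median of its probe sets Tgfbi is not 2-fold higher there. Neither gene passed limma's test (adjusted p = 0.560 for Tnc and 0.514 for Tgfbi), which takes its spread from the distance between the 2 acetate-fed mice.

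The promoters of 29 of the 47 members were found in a RefSeq table of the GRCm38.p6 build, 35 promoters in all; Mgp and Mfap4 were not matched. Those of Tnc and Tgfbi are shown beside those of Ogn and Ecm1, members that were lower in both mice and are described further on, so that the letters upstream of both kinds of gene can be read. Each sequence is the 250 bases before the annotated start, 5′ to 3′ on the gene's strand, and for Tnc before the more upstream of its annotated starts. Capitals mark matches, on either strand, to TATAAA (the TATA box), TGANTCA (the AP-1 site), GGGCGG (the GC box) and CAGACA (a SMAD-type site).
Tnc (chr4:64047016-64047265, minus strand): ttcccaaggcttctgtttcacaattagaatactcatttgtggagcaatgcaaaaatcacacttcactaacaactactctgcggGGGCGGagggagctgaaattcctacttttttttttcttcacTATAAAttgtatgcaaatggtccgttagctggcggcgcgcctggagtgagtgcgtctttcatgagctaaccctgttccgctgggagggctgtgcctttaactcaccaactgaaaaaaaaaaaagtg
Tgfbi (chr13:56609336-56609585, plus strand): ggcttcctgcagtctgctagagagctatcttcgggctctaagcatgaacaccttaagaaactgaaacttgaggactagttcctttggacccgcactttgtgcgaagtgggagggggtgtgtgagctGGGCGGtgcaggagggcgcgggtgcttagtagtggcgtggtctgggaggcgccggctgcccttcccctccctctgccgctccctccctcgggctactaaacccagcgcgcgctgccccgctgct
Ogn (chr13:49607765-49608014, plus strand): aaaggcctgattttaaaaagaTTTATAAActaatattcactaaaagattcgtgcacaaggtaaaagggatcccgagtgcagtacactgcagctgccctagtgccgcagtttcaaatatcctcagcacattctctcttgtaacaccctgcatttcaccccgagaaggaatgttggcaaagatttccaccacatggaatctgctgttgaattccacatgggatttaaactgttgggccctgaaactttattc
Ecm1 (chr3:95739570-95739819, minus strand): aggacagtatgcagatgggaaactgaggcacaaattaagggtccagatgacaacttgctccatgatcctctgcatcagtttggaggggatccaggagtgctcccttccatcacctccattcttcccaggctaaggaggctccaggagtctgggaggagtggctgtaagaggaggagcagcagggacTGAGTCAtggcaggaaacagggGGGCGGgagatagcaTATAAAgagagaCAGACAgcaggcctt

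The Tnc sequence holds GGGCGG starting at base -167 and TATAAA at base -126, counted back from the start. Before its other annotated start, which lies downstream, the same GGGCGG and TATAAA fall at -246 and -205, and CAGACA on the opposite strand at -71 is added. The Tgfbi sequence holds GGGCGG at base -124. In Ogn both matches are TATAAA on opposite strands, and they overlap in 1 run near the far end. The Ecm1 sequence holds all 4 kinds of letters within its last 100 bases, with TGAGTCA at base -64, GGGCGG at -42, TATAAA at -27 and CAGACA at -15. Promoters of Fmod and P4ha1, also lower in both mice, were found too but are not shown. The Fmod promoter holds none of these letters, and that of P4ha1 holds only GGGCGG, at base -209. Across the 32851 promoters of the table TATAAA occurred in 12.4%, TGANTCA in 6.75%, GGGCGG in 32.7% and CAGACA in 17.1%. Among the 35 member promoters the counts were 7, 3, 22 and 11. These matches describe the letters only, and no factor's binding was measured.

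Among the 13 tested adhesive and matricellular glycoproteins, 11 exceeded the control in both mice, and the group medians were 1.27 (mouse 1) and 0.37 (mouse 2). Sparc, a collagen-binding matricellular protein, was 10.45 (control), 11.81 (mouse 1) and 11.15 (mouse 2). Postn, or periostin, was 6.07, 7.51 and 6.43 on the same arrays. Thbs2, encoding the anti-angiogenic thrombospondin-2, was 4.59, 6.52 and 5.05. For all 3 genes the control was the lowest array and mouse 1 the highest. The dimmest Sparc probe set was flat, at 6.61, 6.60 and 6.61.

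Fn1, the gene of fibronectin, was well above the control in mouse 1 and close to it in mouse 2. It was 8.72 (control), 10.09 (mouse 1) and 8.73 (mouse 2). Mouse 1 was 2.59-fold higher and mouse 2 was 1.01-fold higher. Thbs1, thrombospondin-1, known for activating latent TGF-beta, showed a like spread: 7.17 (control), 8.44 (mouse 1) and 7.41 (mouse 2).

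Pamr1 encodes a secreted protein with a peptidase-like domain. It was 6.30 (control), 7.03 (mouse 1) and 7.05 (mouse 2), so the acetate-fed mice lay closer to each other than to the control. It rose by 0.73 ± 0.02 (limma SE), and it is the one glycoprotein past limma's test (adjusted p = 0.039). The call is lost in limma's fit on the upper 40% of probe sets (adjusted p = 0.066), after median centring (0.095) and after quantile normalization (0.240). Sparcl1, Matn2 and Cthrc1 were also higher in both mice, by 0.05 to 1.01 on the log2 scale. Tnxb, the tenascin of loose connective tissue that supports collagen fibrils, was 5.13 in the control and in mouse 1 and 5.07 in mouse 2.

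Ecm1, a secreted glycoprotein that binds several matrix proteins, was the one tested glycoprotein lower in both mice. Its level was 9.42 (control), 9.21 (mouse 1) and 9.03 (mouse 2), a mean difference of -0.30 ± 0.13 (limma SE, adjusted p = 0.584). The control was the highest array, and mouse 2 the lowest.

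**Figure D2:**
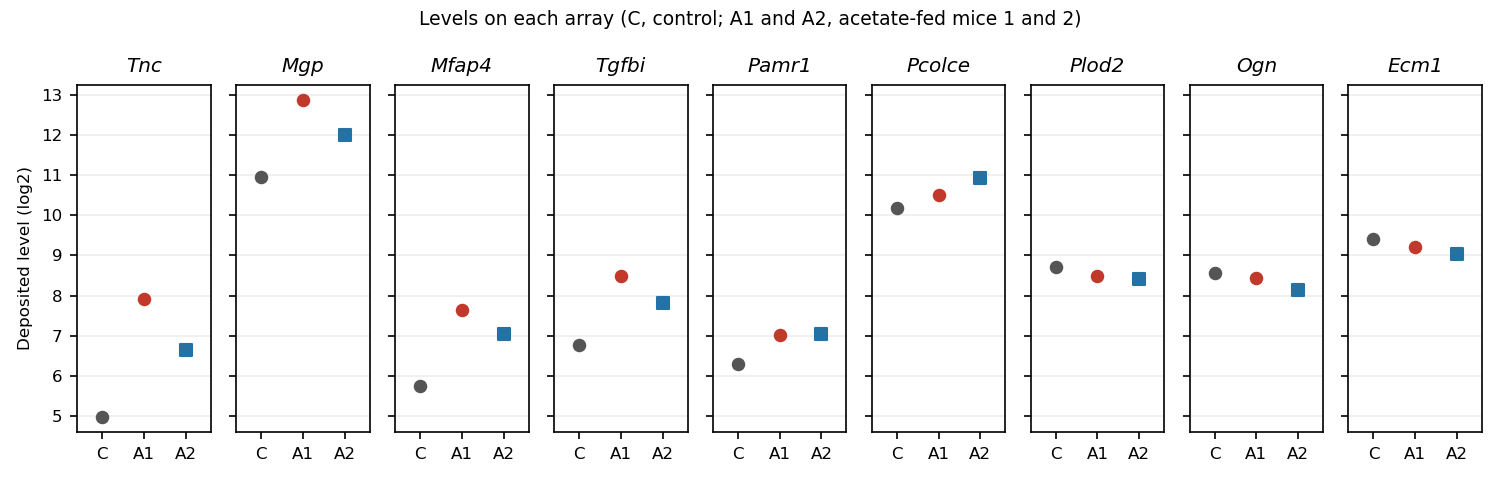
Deposited log2 levels of 9 members on the control array (C, grey) and in acetate-fed mice 1 (A1, red) and 2 (A2, blue), to be compared within a gene. Tnc, Mgp, Mfap4 and Tgfbi are higher in both acetate-fed mice, Pamr1 is nearly the same in both, Pcolce is highest in mouse 2, and Plod2, Ogn and Ecm1 are lower in both.

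Of the 9 proteoglycans, 7 exceeded the control in both mice, and the medians were 0.65 (mouse 1) and 0.15 (mouse 2). Bgn, or biglycan, a small leucine-rich proteoglycan that also signals to innate immune receptors when released, was 10.18 (control), 11.79 (mouse 1) and 10.94 (mouse 2). That is 3.05-fold and 1.69-fold higher, and all 3 probe sets of Bgn were higher in both mice. Its fibril-coating relatives had smaller differences: Dcn (decorin) was 10.49, 11.30 and 10.62, and Lum (lumican) was 7.19, 7.85 and 7.33. The mouse 2 values of Dcn and Lum were 0.13 and 0.15 above the control. Prelp followed the same order of arrays.

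Ogn, the gene of the small leucine-rich proteoglycan osteoglycin, went the other way from biglycan. It was 8.56 (control), 8.44 (mouse 1) and 8.14 (mouse 2), a mean difference of -0.27 ± 0.22 (limma SE, adjusted p = 0.828). Its second tested probe set was 8.20, 8.06 and 7.59, with the arrays in the same order. Both probe sets had their highest value on the control array, which is also the array with the adipose markers. The part of that difference between arrays in the value of Ogn was not tested.

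The large proteoglycans were all higher in both mice. Hspg2 and Agrn encode perlecan and agrin, heparan sulfate proteoglycans of basement membranes. Hspg2 was 8.05 (control), 8.50 (mouse 1) and 8.37 (mouse 2). Agrn was 8.26, 8.97 and 8.56. The nidogens, which link laminin to collagen IV in the same membranes, were higher too: Nid1 was 7.41, 8.72 and 8.07 and Nid2 was 5.60, 6.21 and 5.95. The control was the lowest array for all 4 of these basement membrane genes.

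Vcan, encoding versican, a large hyaluronan-binding proteoglycan, passed limma's test as higher (4.56 in the control and 4.99 in both acetate-fed mice, adjusted p = 0.0091). Fmod, fibromodulin, passed it as lower (5.78 in the control and 5.73 in both, adjusted p = 0.023). In both cases the 2 acetate-fed values are exactly equal, and for Fmod the difference is -0.05. Limma's calls of both are lost after median centring (adjusted p = 0.106 for Vcan and 0.538 for Fmod) and quantile normalization (0.240 and 0.412). The other tested Vcan probe set was 4.08, 4.49 and 4.24. The other tested Fmod probe sets were equal to the control or higher than it in at least 1 mouse.

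Of the 10 tested elastic fibre and microfibril genes, 9 exceeded the control in both mice, and the medians were 1.03 (mouse 1) and 0.43 (mouse 2). Mgp, matrix Gla protein, an inhibitor of calcification, was 10.95 (control), 12.86 (mouse 1) and 12.01 (mouse 2), which is 3.76-fold and 2.08-fold higher. Mfap4, which binds elastin and microfibrils, was 5.75, 7.64 and 7.05, or 3.70-fold and 2.47-fold higher. Neither passed limma's test (adjusted p = 0.570 and 0.415). For both genes the control was the lowest array and mouse 1 the highest.

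Eln, the gene of elastin, was 6.60 (control), 7.71 (mouse 1) and 7.15 (mouse 2). A second Eln probe set was 6.19, 6.43 and 6.43, equal in both acetate-fed mice, and passed limma's test (adjusted p = 0.010). The fibulins, which tether elastin to microfibrils and cells, were higher in both mice. Fbln1 was 6.84, 7.75 and 7.28, Fbln2 was 5.57, 6.70 and 6.00, and Fbln5 was 9.84, 10.48 and 10.01. Mfap5, a microfibril glycoprotein, was 5.16, 6.66 and 5.60, with mouse 1 well above both other arrays. Emilin1 and Efemp1 were higher by 0.07 to 0.94. Mfap2 depended on its probe set: the brighter one was 6.91, 6.95 and 6.91, and the other was 6.32, 7.03 and 6.65.

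Collagen modifying and crosslinking genes had smaller differences: 6 of 10 exceeded the control in both mice, and the medians were 0.30 (mouse 1) and 0.05 (mouse 2). Loxl1 and Lox had the largest mean differences of the role, and Pcolce the largest in mouse 2. Lox was 6.19 (control), 7.07 (mouse 1) and 6.61 (mouse 2), and a dimmer tested Lox probe set was 5.42, 7.21 and 6.31. Loxl1, the lysyl oxidase most tied to elastic fibres, was 7.57, 8.74 and 7.80, while its dimmer tested probe set was 4.95, 5.20 and 4.81, below the control in mouse 2. Loxl3 was higher in mouse 1 and not in mouse 2, at 5.52, 6.43 and 5.49.

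Among the proteins that act on procollagen, Serpinh1, the collagen chaperone HSP47, was 9.52 (control), 10.46 (mouse 1) and 9.78 (mouse 2). Pcolce, which enhances the removal of the procollagen C-propeptide, was 10.17, 10.51 and 10.93. Pcolce was the member with the clearest excess in mouse 2, and its other probe set, at 9.77, 10.06 and 10.36, had the same order. Only Pcolce and Pamr1 were higher in mouse 2 than in mouse 1.

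The hydroxylases that act on collagen inside the cell differed little or were lower. The lysyl hydroxylase gene Plod2 was 8.70 (control), 8.49 (mouse 1) and 8.42 (mouse 2). Its second probe set was 8.45 in the control and 8.08 in both acetate-fed mice, and passed limma's test as lower (adjusted p = 0.014) with exactly equal acetate-fed values. Plod1 and Plod3 lay within 0.09 of the control. The prolyl hydroxylase subunit genes P4ha1 and P4ha2 had mean differences of -0.03 and 0.16. P4ha1 had a dimmer tested probe set at 7.30, 7.57 and 7.30.

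The 3 members below the filter had low values on every array. Thbs4 was 4.41 (control), 4.12 (mouse 1) and 4.07 (mouse 2). Fbn2 was at most 4.10 and P4ha3 at most 2.79. No detection calls were used, so whether they stood above background is unknown.

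The distance between the 2 acetate-fed mice does not involve the control array. On that comparison 40 of the 44 members were higher in mouse 1 (31.3% of all genes tested), 2 were higher in mouse 2, and Vcan and Fmod were equal. Of all 13473 genes tested, 4215 were higher in mouse 1, 5236 were higher in mouse 2 and 4022 were exactly equal, so ties lower the 31.3%. Summed over the members, the back-transformed level was 14975 (control), 31018 (mouse 1) and 20596 (mouse 2). With 1 mouse on each side this describes 2 animals of the same group.

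Most markers of fibroblasts and macrophages were higher together with these genes. Fibroblast and mesenchyme markers, a list that includes the collagens Col1a1, Col1a2 and Col3a1, exceeded the control in both mice for 7 of 11 genes. Their summed back-transformed level was 2462 (control), 8545 (mouse 1) and 3907 (mouse 2). Bright genes weigh most in this sum, and the collagens in it are matrix genes themselves. Col1a2 was 9.42 (control), 11.57 (mouse 1) and 10.34 (mouse 2), and Col3a1 was 8.33, 11.15 and 9.40. Pdgfra, a fibroblast receptor, was 6.95, 8.10 and 7.47 on these arrays. Pi16 and Clec3b, fibroblast genes expressed in many connective tissues, were lower in both mice (7.40, 6.97 and 6.91 for Pi16; 5.83, 5.31 and 5.19 for Clec3b). Macrophage and other leukocyte markers stood above the control in both mice for 8 of 10 genes, with sums of 2269, 8293 and 4500. The exceptions were the lymphocyte genes Cd3e (6.26, 6.26 and 6.25) and Cd79a (4.76, 4.70 and 4.54). Smooth muscle markers did so for 3 of 6 genes (sums of 1879, 3889 and 2053), endothelial markers for 6 of 6 (1975, 2283 and 2208) and urothelial markers for 2 of 6 (510, 749 and 601). For tubule markers the number was 4 of 7 (41669, 43520 and 46255) and for podocyte markers 4 of 4 (1042, 1278 and 1234). Of all genes tested 26.0% were higher in both mice. Some of these differences were very small. The endothelial medians were 0.14 (mouse 1) and 0.12 (mouse 2), and the podocyte medians 0.28 and 0.14. Larger medians were those of the macrophage and other leukocyte list, 1.76 and 1.00, and of the fibroblast list, 1.10 and 0.52. Both lists lay above the medians of the members, 0.76 and 0.25, so a shift of this size is not particular to the members. Among the endothelial genes Flt1 and Kdr lay within 0.06 of the control in both mice, while Pecam1 and Cdh5 were 0.48 to 0.76 higher. This split depended in part on the probe set. Mean differences ran from 0.07 to 0.66 over the tested Cdh5 probe sets and from 0.03 to 0.27 over those of Flt1. Gli1, at 4.64, and Upk2, at 6.97, were equal on all 3 arrays. The part of these cell types in the matrix values was not tested, and in whole kidney a change in the number of cells of a type cannot be told apart from a change in RNA per cell.

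**Figure D3:**
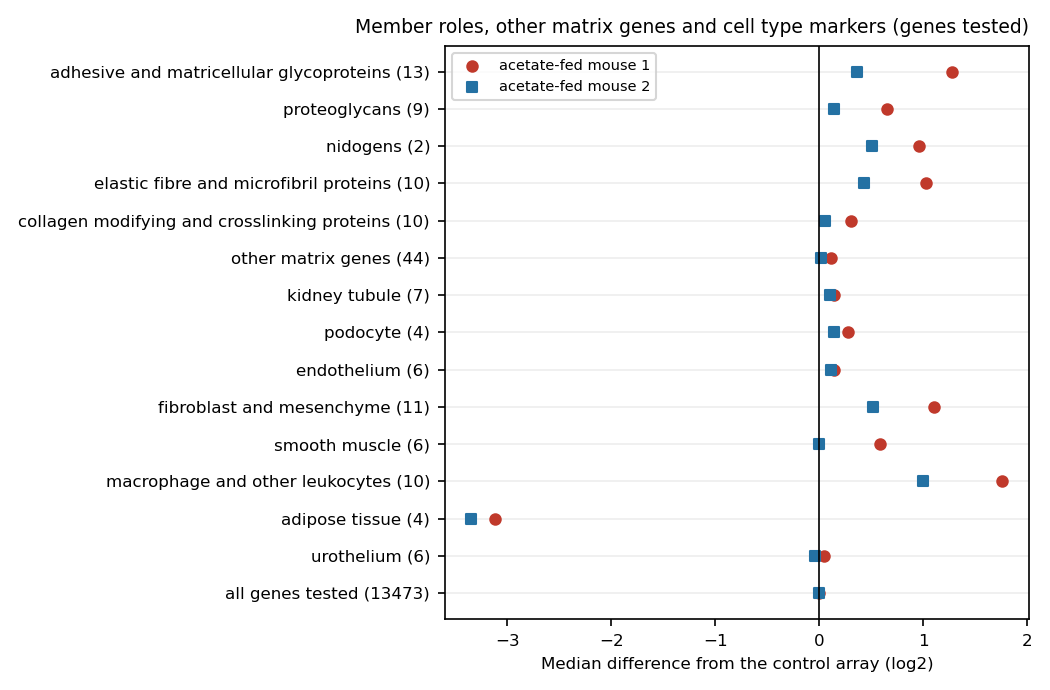
Median difference from the control array (log2) in acetate-fed mouse 1 (red circles) and mouse 2 (blue squares) for the member roles, the other matrix genes, the cell type marker lists and all genes, with the number of genes tested in brackets. Macrophage and fibroblast lists lie to the right with most member roles, and the 4 adipose markers lie below -3 in both mice.

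Other matrix genes outside the list, 44 tested of 63, had a smaller shift. Of them 22 were higher in both mice (26.0% of all genes tested), 9 were lower (30.9%) and 13 neither. The medians of these genes were 0.11 (mouse 1) and 0.02 (mouse 2). None of them was 2-fold higher in both mice, against 0.408% of all genes. Ccn2, encoding connective tissue growth factor and chosen here after its values were seen, was 9.82 (control), 11.13 (mouse 1) and 10.58 (mouse 2). Limma's test called 5 as higher (Omd, Podn, Ncan, Tnn and Spock2), against 3.97% of all genes. It called 4 as lower (Comp, Smoc1, Emilin2 and Colgalt2), against 4.92%. All 9 have exactly equal acetate-fed values, with differences of 0.04 to 0.30 for those higher.

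Limma's test called 2 of the 44 members as higher (Pamr1 and Vcan; 3.97% of all genes were called so) and 1 as lower (Fmod; 4.92%). These shares are near the background. The test rests on the difference between the 2 acetate-fed mice, and 92.3% of its calls over all probe sets had exactly tied acetate-fed values, against 33.7% of all tested. With tied pairs left out, 21 of the 42 remaining members passed as higher, against 6.60% of 9451 genes, and 0 as lower, against 6.12%. That fit draws on 26.5 prior degrees of freedom from all probe sets and 1 from the acetate-fed pair, so a pass reflects the size of the mean difference more than closeness of the mice. The smallest adjusted p without tied pairs were those of Mfap4 (1.9e-07), Tnc (2.7e-07), Mgp (9.7e-07) and Tgfbi (2.9e-06). Ogn, Ecm1 and Plod2 did not pass in it (adjusted p = 0.287, 0.169 and 0.303).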

How the data were processed

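Total RNA of 3 mouse kidneys was measured on Affymetrix arrays. The authors deposited log2 values for 45101 probe sets, with medians of 4.91 to 4.94. The submitters' processing notes name MAS5, and the summarisation, its version and any filter are not stated in them. No scanner files were used. Among the deposited values, 30.0% of probe sets are equal on all 3 arrays and 44.9% on both acetate-fed arrays.

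Groups follow the labelled agent. Probe sets were named from the platform annotation: of those that are not Affymetrix controls, 34945 had 1 symbol, 932 had several and 9160 were not listed and stayed unnamed, and 34741 matched a RefSeq gene table by Entrez identifier. The upper 60% by mean (27022 probe sets, mean at least 4.21) were tested with limma 3.58.1 (R 4.3.3; lmFit, eBayes with trend), Benjamini-Hochberg adjusted over all of them, with a threshold of 0.05. Only the acetate-fed pair gives the fit a residual degree of freedom (1), and the control is taken to vary as that pair does. P-values rest on the spread within the acetate-fed pair and on the variance that limma pools over all probe sets. The lone control adds no spread of its own. The spread within the pair may be technical. Each gene is represented by its brightest tested probe set. The script was tested on simulated data without tied values, so that test does not bear on calls from tied pairs. Members, lists and tests were chosen with earlier results of these data known. Values on every array were given for members 2-fold from the control in both mice, past limma, or extreme in their role, and for further members picked to show their role. Tables and plots used Python 3.11.15, pandas 2.3.3 and matplotlib 3.10.9.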

Additional observations from a re-analysis of the deposited data

How the results depend on the processing

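No paired analysis was possible because the control carries no mouse number and stands alone. The number of members higher in both mice was 35 and ranged from 24 (a difference of at least 0.2 required) to 36 (no filter, quantile normalization, or the median of a gene's probe sets), and was 34 after median centring. Leaving out 1 acetate-fed mouse gave 35 to 38, and such counts can only stay the same or rise when a mouse is left out. The 4 members at least 2-fold higher in both became 8 at 1.5-fold and 3 with the median of a gene's probe sets, where Tgfbi falls below 2-fold in mouse 2. Leaving out 1 mouse gave 4 (without mouse 1) to 16 (without mouse 2), so mouse 2 limits this number. The median difference of the members was 0.53 and lay between 0.25 and 0.76 with 1 mouse left out. Of the other matrix genes, 12 of 25 were higher in both mice in the upper 40%, against 22 of 44, since fewer genes were tested; with 1 mouse left out the number was 23 to 28. Limma's calls over all probe sets, 2846, became 6523 with no filter and 0 in the upper 40%, after quantile normalization and after median centring (3513, 4303 and 4959 at an unadjusted p under 0.05). Its 3 member calls became 0 under the same 3 settings (1, 5 and 13 at an unadjusted p under 0.05) and 21 with tied pairs left out, of which 1 was among the 3; the cause was not tested. For 15 named members 65 of 75 alternative values moved by no more than the spread between the mice, 10 moved by more, and 0 calls reversed. With 1 mouse left out a value cannot move by more than that spread. The median of probe sets cannot move a member with 1 tested probe set, and only the 3 called members could count as reversed. The 65 are therefore no measure of stability. Mfap2 changed sign after median centring. Depth does not apply, and background and saturation are unknown, so the number of arrays limits every value.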
